A study of Mus musculus with 10 samples.

Results

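The 9 genes described here mark the muscle and pericyte layers of vessels or control that programme, and were chosen by name: *Myh11*, *Tagln*, *Cnn1*, *Smtn* and *Mylk* of the smooth muscle contractile apparatus, *Myocd* and *Srf*, which regulate it, and *Pdgfrb* and *Cspg4* of pericytes. All 9 were found among the 23195 genes of the deposited comparison. The tissue is the heart of male C57BL6/J embryos at E13.5, sequenced as polyA RNA from 5 wildtype and 5 *Nos1ap* null embryos. The null allele, tm1d, lacks exon 4 of *Nos1ap* in every cell, having been derived with Cre expressed from the CMV promoter. The null embryos carried it on both chromosomes, and mice with this allele were bred by intercrossing heterozygotes. In bulk tissue, fewer cells of a type and less RNA per cell cannot be told apart.

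Smooth muscle cells contract when myosin light chain kinase, encoded by *Mylk*, phosphorylates the light chains of a myosin whose heavy chain is encoded by *Myh11*. Calponin (*Cnn1*), transgelin (*Tagln*) and smoothelin (*Smtn*) bind the actin filaments of the same cells. Serum response factor (*Srf*) binds a short DNA element, the CArG box, near the genes of this apparatus, and myocardin (*Myocd*) is the coactivator that switches them on with it. Pericytes lie on capillaries and carry the receptor PDGFRB, to which endothelial cells send PDGF-B, and the proteoglycan NG2, encoded by *Cspg4*. In the embryonic heart these genes do not mark vessel walls alone, since young cardiomyocytes also transcribe *Tagln*, and *Myocd* and *Srf* act in cardiac as well as in smooth muscle. Coronary smooth muscle and pericytes arise largely from the epicardium.

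*Srf* is the member whose own promoter carries the element that its protein binds, and its sequence is shown for that reason. In the RefSeq promoters of GRCm38.p6, a window of 250 bases before and 50 after each start, the CArG box was searched on both strands, which read alike for this motif. Of 32851 promoters, 1.63% held at least 1 and 6 held 2 or more. The window of *Srf* held 2, and those of the other matched members, *Cnn1*, *Smtn*, *Mylk* and *Cspg4*, held 0. Each of these windows covers 1 start, and those of *Smtn* and *Mylk* lie within the annotated span of the gene. Boxes at other starts or farther away were not sought. *Myh11*, *Tagln*, *Myocd* and *Pdgfrb* were not searched. The 250 bases upstream of *Srf* lie at chr17:46556163-46556412 on the minus strand of GRCm38.p6 and are printed with both boxes in capitals, which begin 82 and 62 bases before the start.
*Srf*: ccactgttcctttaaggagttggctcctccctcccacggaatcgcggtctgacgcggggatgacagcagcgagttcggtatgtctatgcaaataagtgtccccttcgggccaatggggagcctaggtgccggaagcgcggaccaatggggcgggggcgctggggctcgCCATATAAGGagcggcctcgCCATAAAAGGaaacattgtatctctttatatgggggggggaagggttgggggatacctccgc

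The deposited values are means of normalized counts, read pairs divided by a library's size factor, over the 5 libraries of a group. The digits of these means were used to work out counts of single libraries, and libraries are numbered 1 to 5 in each group by descending size factor, not by the replicate numbers of the labels. All 9 members had a mean of at least 10. Counts were settled in both groups for *Myh11* and *Mylk*, and less firmly for *Myocd*. For the 6 members with means of 1000 or more only the group means are given, each with the smallest SD that any 5 whole counts with that mean can have. An estimated 11328000 to 14023000 read pairs were counted per library. *Nos1ap* itself had 144 ± 14.4 (SD, n = 5) normalized counts in wild type and 39.8 ± 5.20 (SD, n = 5) in null, with no overlap of the groups. Wild-type library 3 stood apart. It lay more than 2-fold above the median of the 10 libraries for 2.53% of 10307 protein-coding genes (261 genes), and *Myh11* was 1 of these genes. The count was 80 in null library 2 and 5 to 19 in the remaining libraries.

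The smooth muscle and pericyte genes had nearly equal group means in wild-type and *Nos1ap* null hearts, with 1 exception. For 8 of the 9 members the log2 ratio of the null mean to the wild-type mean lay between -0.071 and 0.060. *Myh11* alone lay outside 0.1, with group means of 84.0 in wild type and 44.1 in null and a log2 ratio of -0.93. Of 13299 protein-coding genes with a mean of at least 10, 24.0% lay outside 0.1 in either direction and 1.74% lay below -0.5. The median log2 ratio was -0.0014 over the members and -0.00093 over these genes. By limma, at an adjusted *P* under 0.01 and an absolute log2 fold change over 1, 0 of the 2 members tested were called, where 0.0291% of 10307 genes were. At an unadjusted *P* under 0.05, limma and its voom form each passed 0 of these 2, where limma passed 1.70% of genes as higher and 1.84% as lower in null. The groups did not overlap for 0 of these members, whereas null lay entirely above wild type for 0.427% of genes tested and entirely below it for 0.359%.

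**Figure D1:**
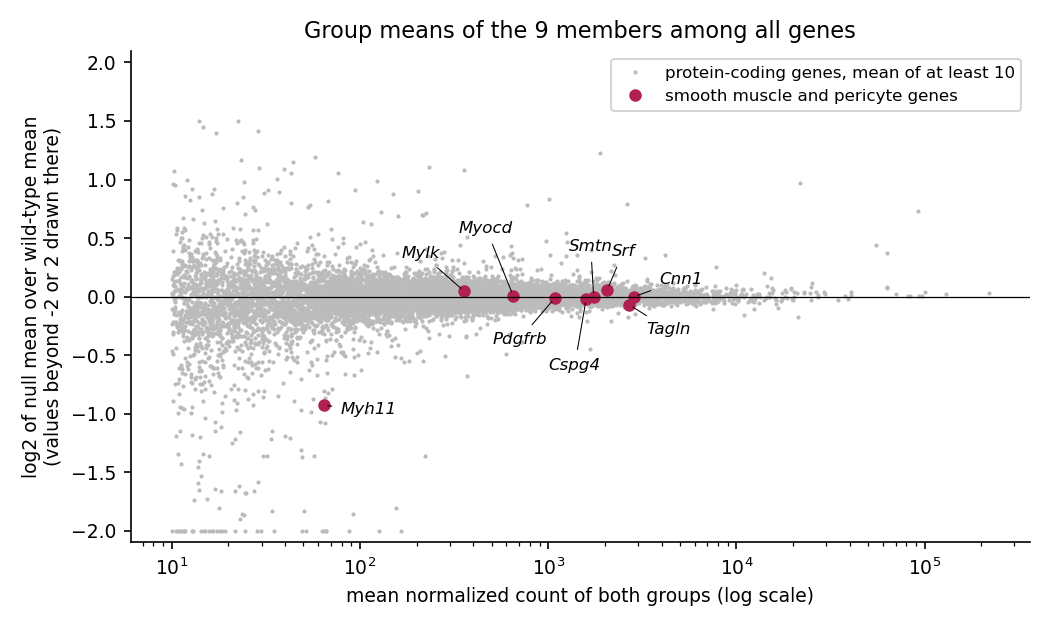
Log2 ratio of the null to the wild-type group mean (vertical axis) against the mean normalized count of both groups (horizontal axis, log scale) for 13299 protein-coding genes in grey and the 9 members in red. *Myh11* sits at -0.93, and the other 8 members lie between -0.071 and 0.060.

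*Myh11*, the heavy chain of smooth muscle myosin and the marker most particular to mature smooth muscle, was the least abundant member. Wild-type libraries 1 to 5 had 56.5, 32.9, 206, 69.1 and 55.9 normalized counts. Null libraries 1 to 5 had 64.8, 40.2, 30.2, 56.9 and 28.3. Library 3 was the highest of the wild-type libraries by a wide margin, and the others overlapped with the null libraries over most of their range. The groups averaged 84.0 ± 69.2 (SD, n = 5) in wild type and 44.1 ± 16.2 (SD, n = 5) in null. The difference was smaller than the SD in wild type (exact two-sided permutation test, *P* = 0.206, the smallest possible being 0.00794). By limma the log2 fold change of the log2(normalized count + 1) values was -0.70 (SE 0.47, adjusted *P* = 0.998).

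A single library set the size of the *Myh11* difference. Wild-type library 3 held 47.9% of the *Myh11* read pairs of its group and lay 3.68-fold above the median of the other 9 libraries, which ranged from 28.3 to 69.1. Without it, wild type averaged 53.6 ± 15.1 (SD, n = 4), and the log2 ratio of the means was -0.28 (exact two-sided permutation test, *P* = 0.389). The limma log2 fold change was then -0.30 (unadjusted *P* = 0.277). Without wild-type library 2, the lowest of its group, the ratio was -1.13 (exact two-sided permutation test, *P* = 0.0476). Over all 10 libraries left out in turn, the ratio stayed below 0 and this *P* ranged from 0.0476 to 0.452.

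Genes of other tissues were high in the same library. The summed normalized count of 9 of 12 neuronal and glial genes was 1956 in wild-type library 3 and 188 to 258 in the other 9 libraries. Among 8 of 9 skeletal muscle genes in the table the sum was 241, against 62.9 to 113 in the others. For 7 of 8 genes of visceral and airway mesenchyme it was 156, against 68.7 to 109. Of these, only *Foxf1* (39.7 against 1.09 to 14.4) and *Hoxa5* (63.1 against 6.78 to 26.8) were highest in library 3. The rest, such as *Wnt2* at 41.7, lay inside the range of the other libraries. The 8 genes listed for lung epithelium summed to 1045, against 868 to 1032, but 3 keratins made up most of that sum (998, against 858 to 1025). The other 5 of these genes, all of low level, summed to 47.8 in library 3 and to 4.03 to 10.3 in the other 9, with the epithelial cadherin gene *Cdh1* at 16.3 against 1.01 to 4.14 and the endoderm gene *Foxa2* at 9.16 against 0 to 1.03. The sums of 2 endothelial genes (1617 against 1545 to 1747) and 4 epicardial genes (1347 against 1206 to 1448) lay inside the range of the other libraries. For 6 of 8 cartilage genes the sum was 1091, against 486 to 1037, and for 2 of 9 erythroid genes it was 75.3, against 50.4 to 349. The lowest cartilage sum and the highest erythroid sum were both in null library 2. The part of these cell types in the *Myh11* difference was not tested.

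*Mylk* encodes the kinase that starts smooth muscle contraction and, from an internal promoter, telokin, and reads of both are counted together. Its normalized counts in wild-type libraries 1 to 5 were 355, 330, 442, 327 and 305. In null libraries 1 to 5 they were 374, 389, 370, 344 and 340. The null libraries lay inside the wild-type range, whose top was again library 3. Means were 352 ± 53.3 (SD, n = 5) in wild type and 363 ± 21.1 (SD, n = 5) in null (exact two-sided permutation test, *P* = 0.698). The limma log2 fold change was 0.057 (SE 0.081, adjusted *P* = 0.998). Without wild-type library 3, the 4 other wild-type libraries averaged 329 ± 20.4 (SD, n = 4), the limma log2 fold change was 0.14 (unadjusted *P* = 0.0381, adjusted *P* = 0.997), and the groups still overlapped.

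*Myocd*, the coactivator, had a wild-type set of counts that was less firm than the rest, with 0.0115 other sets expected as near to equal expression against a limit of 0.01. Wild-type libraries 1 to 5 had 604, 610, 567, 695 and 770 normalized counts. Null libraries 1 to 5 had 647, 649, 696, 665 and 609. The null values all fell within the wild-type range, and library 3, the highest for *Myh11* and *Mylk*, was the lowest wild-type library for *Myocd*. The means of 649 ± 82.1 (SD, n = 5) and 653 ± 31.5 (SD, n = 5) differed by less than either SD (exact two-sided permutation test, *P* = 0.913). Limma gave a log2 fold change of 0.016 (SE 0.071, adjusted *P* = 0.998).

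**Figure D2:**
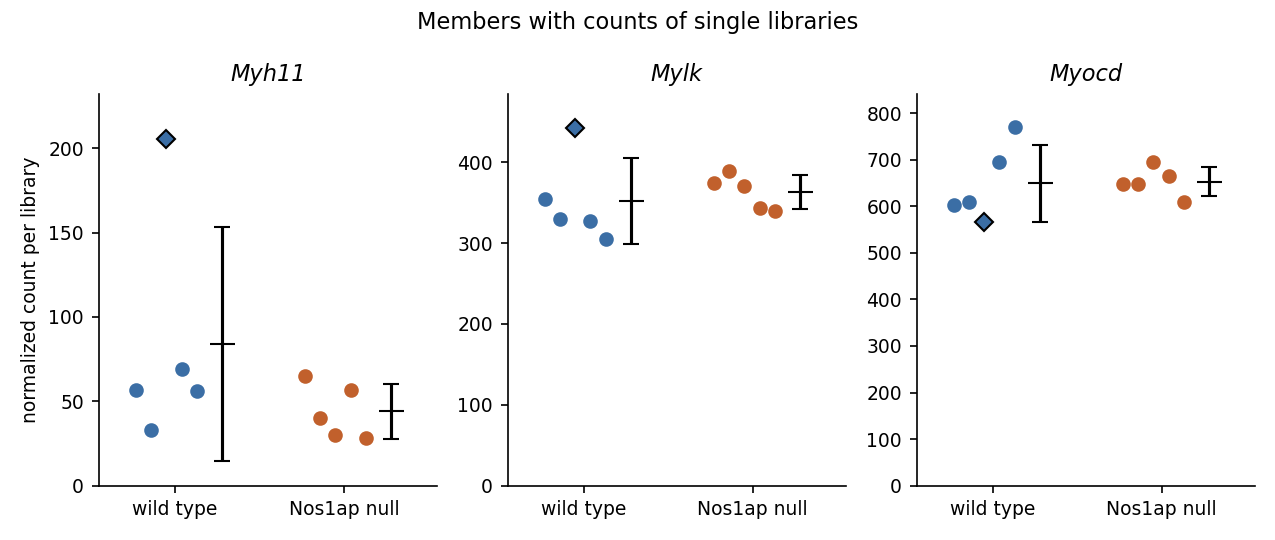
Normalized counts of *Myh11*, *Mylk* and *Myocd* (vertical axes, from 0) in the 5 wild-type and 5 *Nos1ap* null libraries, in the order of their numbers. Crosses with bars are the mean and SD, and the diamond is wild-type library 3, at 206 for *Myh11* against 28.3 to 69.1 in the other 9 libraries.

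The remaining contractile genes were far more abundant. *Tagln*, an early marker of the smooth muscle lineage, had the authors' means of 2769.6 in wild type and 2637 in null, a log2 ratio of -0.071. The libraries behind these means must have had an SD of at least 95.0 and 166, so that the difference of -133 was at most 1.56 times its standard error. *Cnn1*, whose product restrains actomyosin in differentiated smooth muscle, had authors' means of 2857 in wild type and 2855 in null, a log2 ratio of -0.0011. *Smtn* had authors' means of 1745 in wild type and 1744 in null, a log2 ratio of -0.0014. For *Cnn1* and *Smtn*, the difference was at most 0.0221 and 0.0375 times its standard error.

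Of the regulators, *Srf* lay at 2020.3 in wild type and 2106 in null by the authors' means, a log2 ratio of 0.060. Its wild-type and null libraries must have had SDs of at least 156 and 57.9. The difference of 85.7 was at most 1.15 times its standard error. The coactivator *Myocd*, described above, and its partner had log2 ratios of 0.0089 and 0.060. The CArG boxes printed above belong to the *Srf* promoter. The *Srf* transcript differed between genotypes by less than that smallest wild-type SD and by more than that smallest null SD.

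Both pericyte genes had nearly equal group means. *Pdgfrb* had authors' means of 1087 in wild type and 1076 in null, a log2 ratio of -0.014, and its difference was at most 0.161 times its standard error. *Cspg4* had authors' means of 1603 in wild type and 1579.8 in null, a log2 ratio of -0.021, and a difference of at most 0.306 times its standard error. Of these 6 genes, *Cnn1*, *Smtn*, *Pdgfrb* and *Cspg4* differed between genotypes by less than the smallest possible SD of either group. The difference of *Tagln* was larger than that bound in wild type (95.0) and smaller than that in null (166). For *Srf* it was larger than the bound in null (57.9) and smaller than that in wild type (156). The true SD may be larger, so no *P* is given. Of 2182 protein-coding genes with both means from 1000 to 4000, the middle 90% had log2 ratios from -0.060 to 0.083. *Tagln* lay just below that range, and the other 5 lay inside it.

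**Figure D3:**
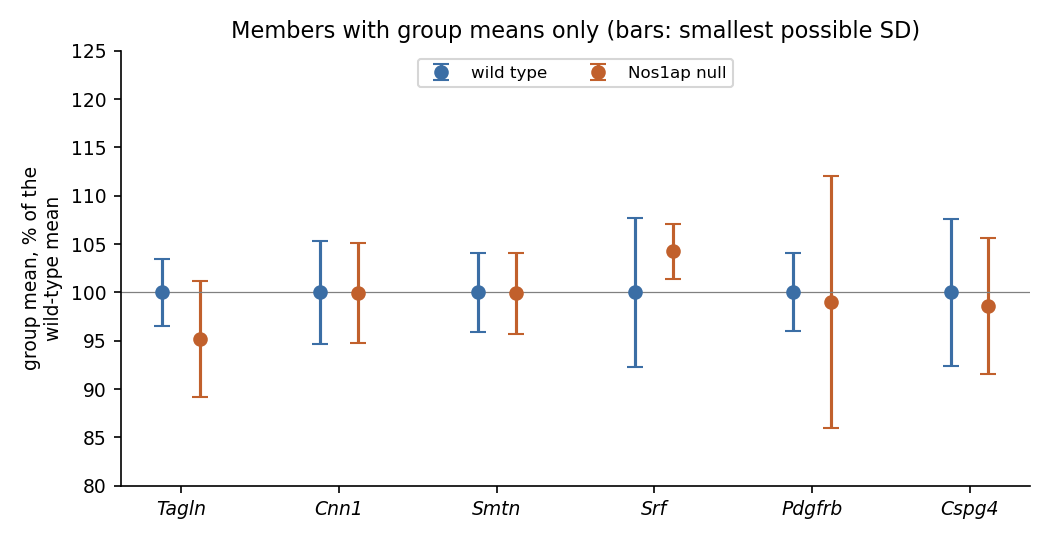
Group means of the 6 members without counts of single libraries, as a percentage of the wild-type mean (vertical axis, which does not start at 0). Bars are the smallest SD that any 5 whole counts with that mean allow, and the null mean of *Tagln* and that of *Srf* are the farthest from 100, with log2 ratios of -0.071 and 0.060.

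Levels of different genes were compared per kb of exon (all exons of a gene joined, GENCODE M21 on GRCm38). *Tagln* (chr9:45929619-45936058, minus strand) was highest, at 1393 normalized counts per kb in wild type and 1326 in null. It was followed by *Cnn1* (chr9:22099216-22109630, plus strand) at 1044 and 1043, *Srf* (chr17:46548329-46556175, minus strand) at 698 and 728, and *Smtn* (chr11:3517523-3540612, minus strand) at 398 and 398. The pericyte genes followed, *Pdgfrb* (chr18:61045150-61085061, plus strand) at 198 and 196 and *Cspg4* (chr9:56865033-56899870, plus strand) at 134 and 132. *Myocd* (chr11:65176561-65269989, minus strand) had 101 and 102, *Mylk* (chr16:34745210-35002420, plus strand) 31.2 and 32.3, and *Myh11* (chr16:14194535-14291372, minus strand) 11.1 and 5.80. The order was the same in both genotypes, and *Tagln* was 126-fold above *Myh11* in wild type, 197-fold without wild-type library 3, and 229-fold in null. Among single libraries of either group, *Myocd* ranged from 88.3 to 120 counts per kb, *Mylk* from 27.1 to 39.2 and *Myh11* from 3.73 to 27.1, so that the lowest wild-type *Mylk* library was level with *Myh11* in library 3. For the 6 more abundant genes the spread between libraries is known only by its lower bound, and the nearest neighbours differed 1.33-fold in wild type (*Tagln* over *Cnn1*, and *Cspg4* over *Myocd*). In the annotation *Tagln* shares 1241 exon bases with *Gm48529* on the opposite strand, and the authors' counting used strand.

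**Figure D4:**
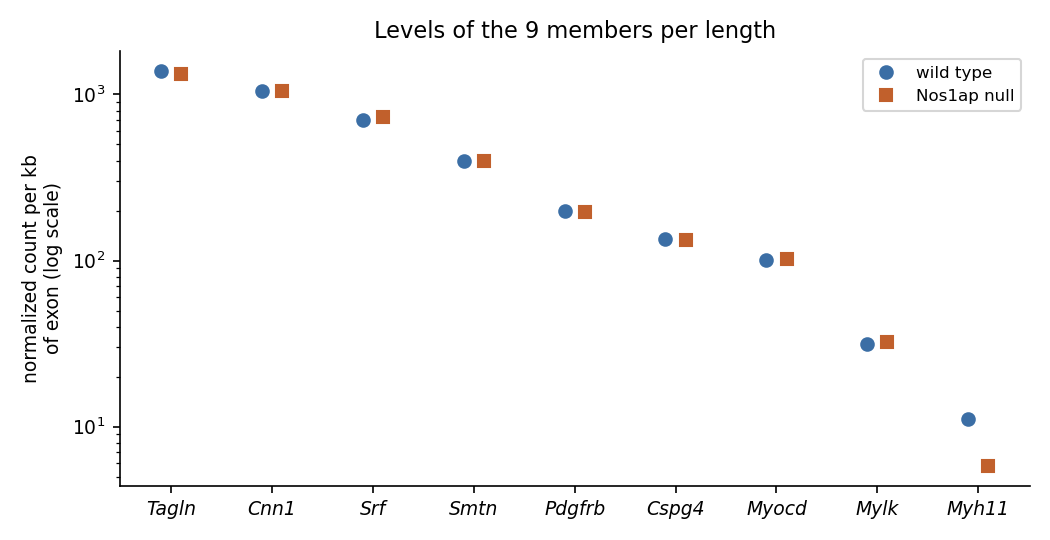
Authors' group means per kb of exon (vertical axis, log scale) for the 9 members in wild type (circles) and *Nos1ap* null (squares), ordered by the wild-type level. The order is the same in both genotypes, from 1393 for *Tagln* down to 11.1 for *Myh11* in wild type.

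Related genes, not all of them particular to smooth muscle or pericytes, also had log2 ratios centred near 0. Over 5 related lists, 90 genes had a mean of at least 10, of which 49 lay higher and 41 lower in null, with a median log2 ratio of 0.021. Of the 35 with counts of single libraries, limma called 0, and 3 had an unadjusted *P* under 0.05 (8.57%, against 3.54% of all genes tested), with an adjusted *P* of 0.998 for each. Among 28 other smooth muscle contractile and regulatory genes, 14 lay higher and 14 lower in null, and the median log2 ratio was 0.0019. For the 9 of them with counts of single libraries the median limma log2 fold change was -0.24, and 0.057 without wild-type library 3. The smooth muscle gamma-actin gene *Actg2* was at -0.41 (limma, unadjusted *P* = 0.0577), and at -0.28 without library 3 (limma, unadjusted *P* = 0.134). *Mustn1*, *Ppp1r14a* and *Lmod1* lay at limma log2 fold changes of -0.36, -0.26 and -0.24, and at -0.33, -0.21 and -0.22 without library 3. The unadjusted limma *P* of these 3 ranged from 0.0680 to 0.144 with all libraries. These lowered genes were picked after their values were seen. Others of the 9 went the other way. *Aoc3*, *Pcp4l1* and *Itga8* were at 0.098, 0.071 and 0.070 (limma, unadjusted *P* = 0.758, 0.350 and 0.613), and *Kcnmb1*, given below, was raised too. Smooth muscle alpha-actin, *Acta2*, had authors' means of 12534 in wild type and 12154 in null, a log2 ratio of -0.044. The most raised was *Kcnmb1*, the smooth muscle subunit of the calcium-activated potassium channel, at a log2 ratio of 0.14 (limma, unadjusted *P* = 0.111). The most lowered was *Sncg*, a gene also used as a neuronal marker, at a log2 ratio of the means of -2.16. It had 205 normalized counts in wild-type library 3 and 8.26 to 14.1 in the other libraries. Its limma log2 fold change was -0.72 (unadjusted *P* = 0.412), and 0.14 without library 3.

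Of the 20 SRF cofactors and SRF targets in the table, 14 lay higher in null and 6 lower, with a median log2 ratio of 0.051. The myocardin-related coactivators *Mkl1* and *Mkl2* had limma log2 fold changes of 0.045 (unadjusted *P* = 0.363) and 0.033 (unadjusted *P* = 0.517). *Cyr61*, a matricellular gene induced through SRF, was at 493, 585, 622, 540 and 695 normalized counts in wild-type libraries 1 to 5 and at 609, 613, 689, 715 and 704 in null libraries 1 to 5. The groups overlapped, and the limma log2 fold change was 0.19 (unadjusted *P* = 0.0371, adjusted *P* = 0.998). *Ctgf*, of the same family, had the highest log2 ratio of the list, 0.21, and *Fos* the lowest, -0.11. *Ctgf* had authors' means of 1568 in wild type and 1816 in null. It lay above the middle 90% of genes with means from 1000 to 4000 (-0.060 to 0.083).

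Among 18 other pericyte and mural cell genes with a mean of at least 10, 8 lay higher and 10 lower in null, with a median log2 ratio of -0.018. *Rgs4*, a regulator of G-protein signalling in mural cells and neurons, was at 66.1, 65.8, 138, 76.4 and 62.1 normalized counts in wild-type libraries 1 to 5 and at 52.2, 21.1, 43.4, 71.9 and 45.7 in null libraries 1 to 5. Its highest value was in library 3 and the groups overlapped in part, at a limma log2 fold change of -0.82 (unadjusted *P* = 0.0295, adjusted *P* = 0.998). Without library 3 this was -0.61 (unadjusted *P* = 0.0434). *Cd248*, which encodes endosialin of pericytes and fibroblasts, ran from 365 to 467 in wild type, again highest in library 3, and from 284 to 375 in null. Its limma log2 fold change was -0.20 (unadjusted *P* = 0.0220), and -0.13 (unadjusted *P* = 0.0765) without library 3. The lowest values of *Rgs4* and *Cd248*, 21.1 and 284, were both in null library 2. Values without that library are not given for these genes. *Rgs5*, a pericyte marker for which no counts of single libraries were settled, had authors' means of 697 and 496, a log2 ratio of -0.49. *Cox4i2* had the highest log2 ratio, 0.21.

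The ligands and signalling partners of PDGFRB had log2 ratios from -0.061 (*Stat3*) to 0.080 (*Pdgfc*) over 11 genes. *Pdgfb*, the endothelial ligand that recruits pericytes, averaged 174 ± 24.5 (SD, n = 5) in wild type and 179 ± 25.9 (SD, n = 5) in null (limma, unadjusted *P* = 0.712). Of 13 genes of elastic and arterial wall matrix, 6 lay higher and 7 lower, from *Fbln5* at -0.21 to *Mgp* at 0.23, and elastin (*Eln*) had a log2 ratio of -0.11. *Fbln5* had authors' means of 2307 in wild type and 1997 in null. It lay below the middle 90% of genes with means from 1000 to 4000 (-0.060 to 0.083). Cardiomyocyte genes, the defining genes of the tissue, had authors' means of 3163 (*Ryr2*) to 128162 (*Myh7*) in wild type and log2 ratios from -0.065 to 0.15. For the 11 cardiomyocyte genes no counts of single libraries were settled. Of 7 epicardial genes, the source layer of coronary mural cells, 6 lay higher in null, as did 6588 of 13299 protein-coding genes. Among these 7, *Wt1* was the most raised, at 508 ± 50.9 (SD, n = 5) in wild type and 574 ± 37.5 (SD, n = 5) in null. The groups overlapped (limma log2 fold change 0.18, unadjusted *P* = 0.00948, adjusted *P* = 0.998). Without wild-type library 3 the log2 fold change of *Wt1* was 0.24 (limma, unadjusted *P* = 0.000428, adjusted *P* = 0.630). The groups then did not overlap, with at most 525 normalized counts in wild type and at least 531 in null. How many of all genes do not overlap without this library was not counted, and the library was singled out from these same data.

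**Figure D5:**
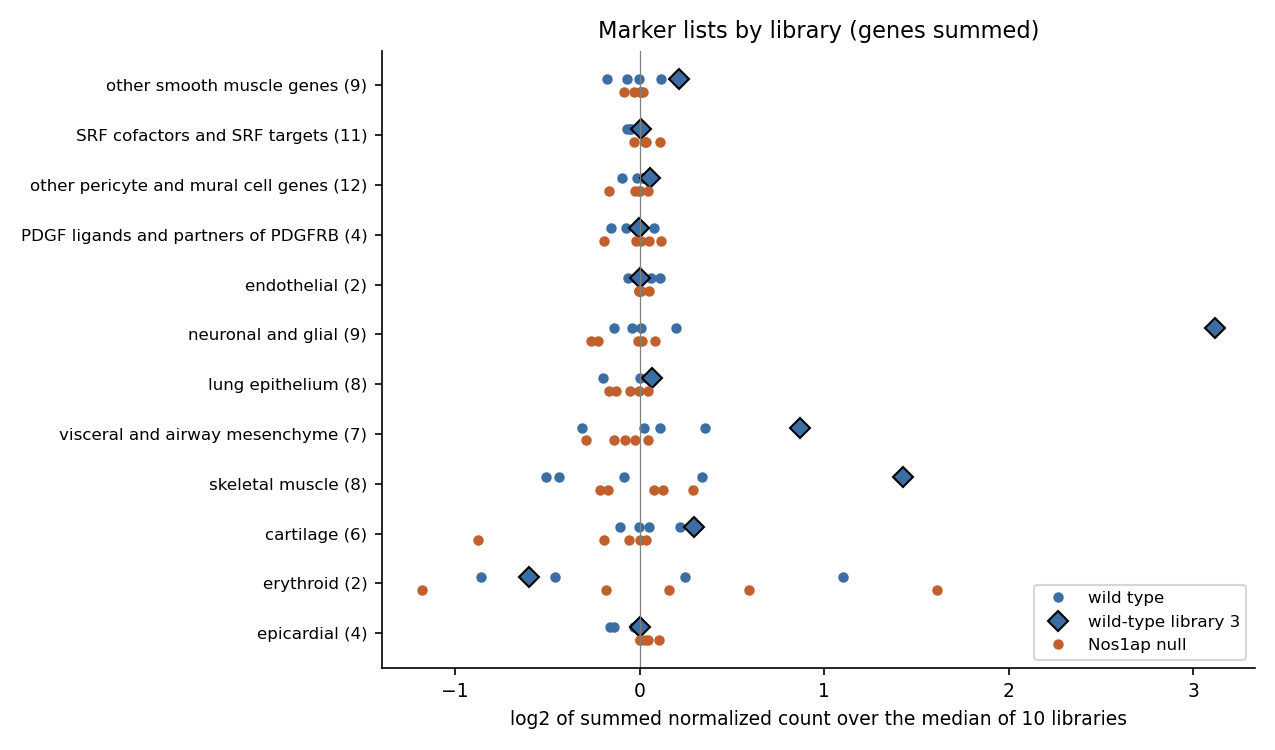
Summed normalized count of each marker list, as log2 of the sum over its median across the 10 libraries (horizontal axis), for each wild-type and *Nos1ap* null library. The number of genes summed stands in parentheses, and wild-type library 3 (diamond) is at 1956 for the neuronal and glial list, against 188 to 258 in the other 9 libraries.

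The genes most like a member across the 10 libraries were sought among 8399 protein-coding genes with a mean of at least 50, by Pearson's r of log2(normalized count + 1). The points share 10 libraries, and the best of many genes are shown, so these values describe and do not test. For *Myh11* they were *Hoxb3* (r = 0.94, Spearman's rho = 0.81), *Rusc1* (r = 0.93, rho = 0.83) and *Erc2* (r = 0.93, rho = 0.77). All were highest in wild-type library 3, and without the 2 libraries farthest from the *Myh11* median r was 0.82, 0.72 and 0.85. For *Mylk* they were *Atf6b*, *Wrap53* and *Diablo* (r = 0.92, 0.89 and 0.89, and 0.74, 0.62 and 0.59 without the 2 farthest libraries). These, too, were all highest in wild-type library 3. For *Myocd* they were *Dsel*, *Jade1* and *Nsun2* (r = 0.90, 0.90 and 0.88, and 0.73, 0.79 and 0.70 without the 2 farthest). Of the members, only *Myh11* and *Mylk* had the settled counts needed to appear in this search, and neither was among the genes named. Likeness among the other members could not be examined.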

How the data were processed

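After trimming (Trimmomatic 0.36), the authors used RSEM 1.2.31 with STAR to count reads on GENCODE transcripts of GRCm38, and compared the counts of 5 wild-type and 5 *Nos1ap* null hearts with DESeq 1.24.0. The signal values in the deposited table are the authors' means of normalized counts per group. The authors' ratio, log2 fold change, p-value and adjusted p-value columns, also in the deposited table, were not used. Whole counts of single libraries were derived by searching for sets of 5 counts that give a mean to its last digit. A set was taken below a mean of 1000 where it was the only one found (all sets searched below 200), or where at most 0.01 others were expected as near to equal expression, 0.1 for *Myocd*. Counts were derived in both groups for 20119 of 23195 genes. The search and the fits were tested on simulated data. The 10307 protein-coding genes that had derived counts in both groups and reached a mean of 10 entered a fit on log2(normalized count + 1) with limma (version 3.58.1, under R 4.3.3), with Benjamini-Hochberg adjustment. Single members were compared by an exact permutation test over 252 arrangements. The limit of 0.1, the smallest SD of abundant members and the split of the lung epithelium list were added after seeing the data. The members, gene lists and tests were chosen with earlier results of these data known. Genes named are the members, and in each list those with the highest and lowest ratio and those with an unadjusted *P* under 0.05. *Acta2*, *Rgs5*, *Eln*, *Myh7*, *Mkl1*, *Mkl2*, *Pdgfb*, *Actg2*, *Mustn1*, *Ppp1r14a*, *Lmod1*, *Aoc3*, *Pcp4l1*, *Itga8*, *Cdh1*, *Foxa2* and *Foxf1* were named after their values were seen where that rule does not choose them, and not every gene it chooses is reported here.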

Additional observations from a re-analysis of the deposited data

Results flagged for a closer look

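Among the member values by library, *Myh11* in wild type was flagged, because wild-type library 3 lay far above the others: its gap to the next library was 0.790 of the range of the group, where 0.710 is the limit for 5 samples. The same comparison over the summed marker lists flagged 4 more groups. The neuronal and glial sum in wild type had a ratio of 0.969 and the skeletal muscle sum in wild type one of 0.719, both with library 3 highest. The sum of genes listed for lung epithelium in wild type had a ratio of 0.744, with 1 low library, at 868 where the other wild-type libraries reached 1045. The endothelial sum in null had a ratio of 0.753, with 1 library at 1673 and the lowest at 1611. In all, 5 of 34 groups were flagged, where chance flags about 1 in 20, and lists summed over the same libraries are not independent of each other.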

How the results depend on the processing

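No paired analysis was possible because the derived libraries cannot be tied to the replicate numbers of the labels. The number of genes called, 3, was 2 where only unique sets of counts were used, and 2 to 3 with each library left out. Under the other alternatives, the signs of the limma log2 fold changes of *Myh11* and *Mylk* stayed as given and 0 of the 2 were called, and *Mylk* could not be fitted where only unique sets were used. With each library left out in turn, the log2 ratio of the means ranged from -1.13 to -0.28 for *Myh11*, from -0.00033 to 0.14 for *Mylk*, and from -0.036 to 0.078 for *Myocd*, so that the signs for *Mylk* and *Myocd* depend on single libraries. The ratio of the medians was -0.49 for *Myh11*. Over the 9 other smooth muscle genes tested the median limma log2 fold change was -0.24, and it was 0.070 with the filter at a mean of 50. With each library left out it ranged from -0.26 to 0.057, the latter without wild-type library 3. Where only unique sets were used, the median was -0.044 for SRF cofactors and targets (0.033 otherwise) and -0.10 for pericyte genes (-0.021 otherwise). For genes listed for lung epithelium it was -0.49 with no filter on the mean (-0.044 otherwise). Fewer or more genes enter under these filters. Depth limits *Myh11*, with 26 to 202 read pairs in each library.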
